A study of Mus musculus with 6 samples.

Results

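The STEAP family and the core genes of iron handling were followed in D4M-3A cells, a mouse melanoma line, with and without a knockout construct against Nfkbiz. The 10 genes, of 43043 listed in the series, were chosen by name as the STEAP reductases (Steap1, Steap2, Steap3, Steap4) and the genes of cellular iron uptake, storage, export and heme breakdown (Tfrc, Slc11a2, Fth1, Ftl1, Slc40a1, Hmox1). Earlier results of these data were known when they were chosen. All 10 passed the filter on low read counts and were among the 14419 genes tested. RNA was sequenced from 3 control samples (Ctrl), which received the empty CRISPR-Cas9 vector, and 3 knockout samples (Nfkbiz KO), transduced with a CRISPR-Cas9 construct against Nfkbiz. All 6 samples shared lentiviral transduction, puromycin selection and culture in RPMI-1640 with 10% FCS, and the labels name no further treatment. The paper's methods list CRISPR-Cas9 constructs under different vector names and do not assign them to cell lines. An effect of a vector difference, if there was one, and one of the knockout cannot be told apart. Whether the knockout cells were a pool or 1 clone is not given in the sources used here, so an effect of clonal origin and one of the knockout cannot be told apart. The study's text describes the samples of each condition as independent experiments, while the labels give only replicate numbers, and p-values measure the spread between these samples.

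STEAP proteins are transmembrane oxidoreductases that reduce ferric iron and cupric copper at membranes, so that the metal can pass through transporters. Iron bound to transferrin enters cells through the transferrin receptor, encoded by Tfrc, is reduced in the endosome, leaves it through the transporter encoded by Slc11a2, and is stored in ferritin, a shell of heavy (Fth1) and light (Ftl1) chains, or exported through ferroportin (Slc40a1). Heme oxygenase 1 (Hmox1) frees iron from heme. Nfkbiz encodes IκBζ, a nuclear protein of the IκB family that acts with NF-κB and STAT factors at chromatin. In inflammation, cytokines are known to raise ferritin and Steap4, while iron itself sets much of the output of this pathway after transcription, through iron-responsive elements (IREs) in the mRNAs.

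IRE-like stem-loops are shown here because they are the sequences through which this second layer of control acts. A 5′ IRE restrains translation and a 3′ IRE protects the mRNA from decay when iron is scarce. The untranslated regions of protein-coding GENCODE M39 transcripts (GRCm39) were searched for stem-loops of 23 bases with the loop CAGTGN, which is in capitals. N was A, C or T, and a bulged C below a fully paired upper stem was required. Each is written 5′ to 3′ on the strand of its gene.
Fth1, 5′ UTR, chr19:9960099-9960121, plus strand: ctgcttcaaCAGTGCttgaacgg
Ftl1, 5′ UTR, chr7:45109206-45109228, minus strand: ttgcttcaaCAGTGTttgaacgg
Slc40a1, 5′ UTR, chr1:45964628-45964650, minus strand: cttcagctaCAGTGTtagctaag
Tfrc, 3′ UTR, chr16:32450040-32450062, plus strand: tatcggaagCAGTGCcttccata
Tfrc, 3′ UTR, chr16:32450419-32450441, plus strand: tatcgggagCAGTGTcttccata
Tfrc, 3′ UTR, chr16:32450484-32450506, plus strand: tatcggagaCAGTGAtctccata
Tfrc, 3′ UTR, chr16:32450531-32450553, plus strand: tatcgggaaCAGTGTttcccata
No such stem-loop was found for Slc11a2, Hmox1 or the 4 STEAP genes, which says only that these letters and pairings are not in the untranslated regions searched. An isoform of Slc11a2 is known to carry a 3′ IRE, which the search did not find.

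Promoters are shown for Steap4, Steap1 and Steap3, the STEAP genes with the largest fall, the highest level and the only rise. Each window holds 250 bases before and 50 after a transcript start, from RefSeq on GRCm38.p6, on the strand of the gene. Capitals mark matches, on either strand, to a κB-like motif (GGGNNNNNCC), a STAT-like motif (TTCNNNGAA) or a C/EBP-like motif (TTGCNNAA), and matches of 1 motif that overlap are counted separately.
Steap4, chr5:7960222-7960521, plus strand: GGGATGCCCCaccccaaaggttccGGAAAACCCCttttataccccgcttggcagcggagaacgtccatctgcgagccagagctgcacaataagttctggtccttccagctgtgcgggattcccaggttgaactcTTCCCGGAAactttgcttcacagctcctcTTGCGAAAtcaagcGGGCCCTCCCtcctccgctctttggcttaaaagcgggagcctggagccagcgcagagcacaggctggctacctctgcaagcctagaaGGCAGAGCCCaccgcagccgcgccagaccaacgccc
Steap1, chr5:5749268-5749567, minus strand: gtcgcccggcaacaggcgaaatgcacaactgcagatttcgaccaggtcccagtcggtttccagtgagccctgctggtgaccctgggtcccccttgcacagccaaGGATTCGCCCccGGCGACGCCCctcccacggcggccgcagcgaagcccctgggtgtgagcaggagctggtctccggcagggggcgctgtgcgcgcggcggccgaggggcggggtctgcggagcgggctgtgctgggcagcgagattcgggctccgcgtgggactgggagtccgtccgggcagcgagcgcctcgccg
Steap3, the first of 4 windows, chr1:120271031-120271330, minus strand: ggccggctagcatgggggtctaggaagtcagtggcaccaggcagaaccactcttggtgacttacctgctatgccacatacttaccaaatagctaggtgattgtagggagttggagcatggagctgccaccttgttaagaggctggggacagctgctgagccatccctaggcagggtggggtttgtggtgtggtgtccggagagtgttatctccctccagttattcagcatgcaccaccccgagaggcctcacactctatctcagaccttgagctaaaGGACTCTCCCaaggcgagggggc
The Steap4 window held 4 κB-like matches, starting at positions -250, -226, -73 and 14 from the start site, 1 STAT-like match at -116 and 1 C/EBP-like match at -87. The Steap1 window held 2 κB-like matches, at -146 and -134, and the Steap3 window shown held 1, at 27. Of 32851 promoter windows of this length, 50.8% held a κB-like match, 8.3% a STAT-like match, 10.8% a C/EBP-like match and 0.41% all 3. The other 3 windows of Steap3 held 3, 1 and 2 κB-like matches, and the 3 windows of Steap2 held 0, 0 and 5. There was also a C/EBP-like match at -223 in the second Steap3 window and a STAT-like match at -135 in the second Steap2 window. Outside the STEAP genes, the overlapping windows of Tfrc held 2 and 3 κB-like matches, those of Fth1 1 and 2, and that of Ftl1 1. The second Fth1 window also held 2 C/EBP-like matches. These matches are letters in a sequence and show no binding.

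The targeted gene, Nfkbiz, had 69.1, 75.2 and 63.5 TPM in Ctrl replicates 1, 2 and 3 and 34.8, 34.7 and 35.1 TPM in the Nfkbiz KO replicates (log2 fold change -0.98, standard error (SE) 0.0559, adjusted p = 6e-08). Reads from edited transcripts count here like any other, so the value checks the labels and does not measure the protein. TPM is the deposited transcript level scaled for transcript length and depth. The depth was 32219900 to 44927203 gene reads per sample, of which 96.5% to 96.9% mapped to 1 place. Log2 fold changes are of Nfkbiz KO against Ctrl on read counts, tested by edgeR (quasi-likelihood) with p-values adjusted after Benjamini and Hochberg over the 14419 genes, and a gene passed at an adjusted p of 0.05 or less. Markers of the melanocyte lineage were low or nearly absent: 8 of 10 had at most 3 reads in any sample, with Tyr, Sox10 and Gpr143 at 0. Mitf had 60 to 115 reads and Pmel 18 to 34. The summed level of the 10 was 2.55 to 3.1 CPM (gene reads scaled to library size) in Ctrl and 2.64 to 3.29 CPM in Nfkbiz KO. Of 10 leukocyte and macrophage markers 7 had at most 3 reads, with Cd3e, Ncr1 and Cd163 at 0 (summed 1.02 to 1.92 and 1.18 to 2.17 CPM). Cd68 had 33 to 74 reads, Csf1r 2 to 19 and Ptprc 0 to 6. The 6 epithelial markers summed to at most 0.281 CPM, with Epcam at 0. The summed level of 6 endothelial markers was 1.03 to 1.61 CPM in Ctrl and 2.38 to 3.05 CPM in Nfkbiz KO, with Cdh5 at 18 to 83 reads higher in Nfkbiz KO (log2 fold change 1.34, adjusted p = 0.0023), Pecam1 not past the test, and none of the 6 at 0 in every sample. The part of the endothelial marker difference in the results was not tested.

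Every one of the 10 genes differed between Nfkbiz KO and Ctrl. Steap3 and Tfrc were higher in Nfkbiz KO cells, and Steap1, Steap2, Steap4, Fth1, Ftl1, Slc40a1, Slc11a2 and Hmox1 were lower. In bulk RNA, fewer cells with a transcript and less of it per cell cannot be told apart. For background, 36.6% of all genes tested passed, 18.2% as higher and 18.4% as lower. Because the 10 were chosen with earlier results of these data known, the comparisons with all genes in this paragraph are descriptions only. A fold change above 2 was reached by 3 of the 10, Steap3, Steap4 and Slc40a1, against 5.92% of all genes tested. With the added demand of a difference of means above 4 TPM, only Steap4 was left, against 1.79% of all genes. The ranges of the groups did not overlap for any of the 10, while 48.4% of all genes tested had groups without overlap. With 3 samples against 3, the two-sided exact permutation test gave p = 0.1 for each of the 10, the smallest value that this design allows. The median log2 fold change of the 10 was -0.48 and the median of its size 0.61, beside -0.01 and 0.20 over all genes.

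**Figure D1:**
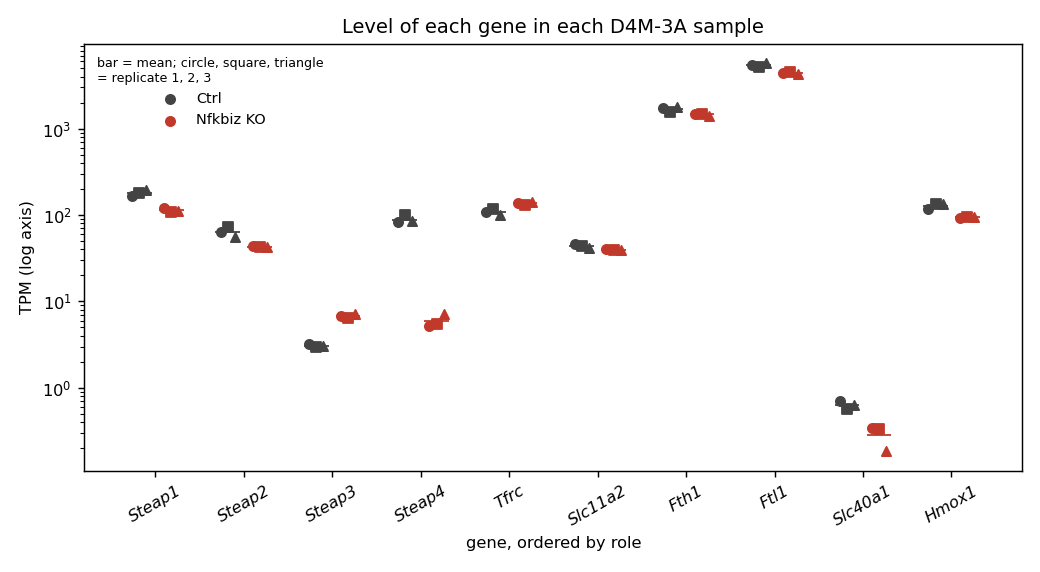
TPM (log axis) of the 10 genes, ordered by role, in 3 Ctrl (gray) and 3 Nfkbiz KO (red) samples. Points are samples, with the shape giving the replicate, and bars are means. Steap4 fell from 82.1 to 98.7 TPM in Ctrl to 5.25 to 7.08 TPM in Nfkbiz KO, while Steap3 and Tfrc sit higher in Nfkbiz KO.

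Steap4, a plasma membrane and endosomal metalloreductase known to be induced by TNF and IL-6, had by far the largest change of the 10. Its gene spans bases 8010260 to 8032214 of chromosome 5 (GRCm39, plus strand). It had 82.1, 98.7 and 84.8 TPM in Ctrl replicates 1, 2 and 3, from 2716, 3440 and 3604 reads. In Nfkbiz KO it had 5.25, 5.47 and 7.08 TPM, from 162, 193 and 296 reads. All 3 Nfkbiz KO samples were far below the lowest Ctrl sample. The log2 fold change was -3.94 (SE 0.103, adjusted p = 1e-10), a 15.4-fold lower level, and its size ranked 11 among the 14419 genes. Gm30835 on the other strand, which shares exon bases with Steap4, had at most 7 reads per sample. Likewise, the opposite-strand genes Gm36913 at Fth1, Gm10252 at Ftl1 and Gm5475 at Slc11a2 had at most 8, 25 and 8 reads per sample. Gm40262 opposite Steap2, Gm69542 opposite Slc40a1 and Gm56125 on the strand of Ftl1 also share exon bases with these genes. They are not listed in the series, so their reads are not known. Without strand, reads of opposite-strand genes cannot be told apart from those of the gene.

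Steap3, the ferrireductase of the transferrin endosome, best known from erythroid precursors and also as a p53 target, moved the other way. It lies on chromosome 1 from 120118487 to 120200435, on the minus strand. Its level was 3.23, 2.96 and 3.06 TPM in Ctrl and 6.78, 6.36 and 7.18 TPM in Nfkbiz KO, from 191 to 531 reads per sample. Every Nfkbiz KO sample was well above every Ctrl sample. The log2 fold change was 1.04 (SE 0.101, adjusted p = 5.8e-06). The difference of means, 3.69 TPM, fell just short of the cut-off of 4 TPM, and on the CPM scale the gene passed it.

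Steap1 lacks the NADPH-binding domain of the other family members and is known as a surface antigen of prostate and other tumors. It was the most abundant STEAP transcript, at 166, 180 and 197 TPM in Ctrl and 121, 108 and 113 TPM in Nfkbiz KO. The ranges were well apart, and the log2 fold change was -0.78 (SE 0.0717, adjusted p = 3.5e-06). It lies on chromosome 5 from 5786317 to 5799365, on the minus strand. Steap2, a metalloreductase of the Golgi and plasma membrane, is its neighbor, from 5714829 to 5744678 on the same strand. Steap2 had 62.8, 73.0 and 56.3 TPM in Ctrl and 43.6, 42.7 and 43.1 TPM in Nfkbiz KO. Its Ctrl samples varied more than its Nfkbiz KO samples, which were nearly equal, and none overlapped (log2 fold change -0.66, SE 0.0627, adjusted p = 4.7e-06).

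Summed over the 4 genes, STEAP transcripts amounted to 314, 355 and 341 TPM in the Ctrl samples and 177, 163 and 170 TPM in the Nfkbiz KO samples. The make-up of the family differed as well as its total. Steap4 gave 26.1%, 27.8% and 24.9% of the summed TPM in Ctrl and 2.97%, 3.36% and 4.16% in Nfkbiz KO. The share of Steap3 went from 0.92% ± 0.0982 to 3.99% ± 0.209 (mean ± SD, n = 3). Steap1 took 53.8% ± 3.59 of the sum in Ctrl and 67.1% ± 1.27 in Nfkbiz KO. The ratio of Steap4 to Steap3, the reductases with opposite changes, was 28.8 ± 4.06 in Ctrl and 0.874 ± 0.106 in Nfkbiz KO. That ratio is a description, since the pair was set side by side for its opposite changes. The summed level and the shares did not overlap between the groups, which gives each an exact permutation p of 0.1. The shares are parts of the same sum, so a smaller Steap4 part by itself makes the other shares larger. Their p-values are thus not independent, and Steap1 and Steap2 had larger shares although both were lower in TPM. The ratio of Steap1 to Steap2 was 2.87 ± 0.552 in Ctrl and 2.64 ± 0.127 in Nfkbiz KO, with overlapping samples and an exact permutation p of 0.8.

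**Figure D2:**
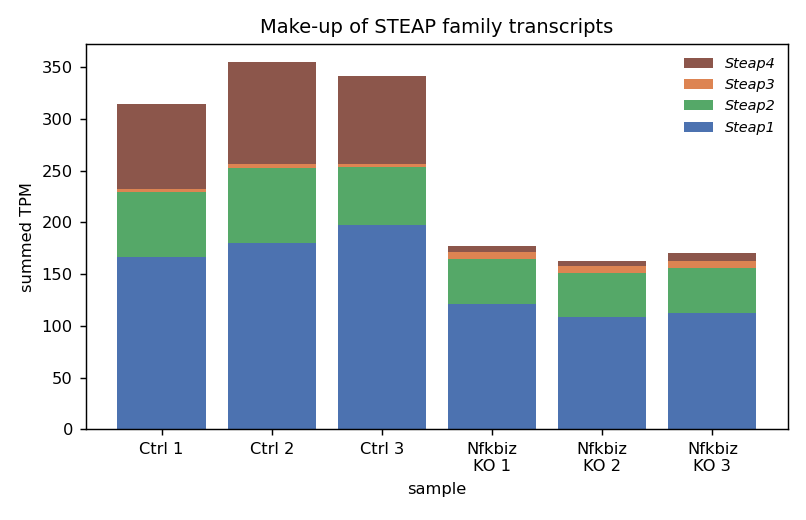
Summed TPM of Steap1, Steap2, Steap3 and Steap4 in each of the 6 samples, stacked by gene. The columns of Nfkbiz KO reach 163 to 177 TPM against 314 to 355 TPM in Ctrl, and the Steap4 segment shrinks from 24.9% to 27.8% of the column to 2.97% to 4.16%.

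Steap1, Steap2 and Steap4 lie on chromosome 5, and all 3 were lower in Nfkbiz KO. The starts of Steap1 and Steap2 are 54.7 kb apart, and those of Steap1 and Steap4 2210.9 kb, with 0 tested genes between the latter. Within 500 kb of either end of this stretch, 10 other genes were tested, of which 2 were higher, 2 lower and 6 did not pass, with a median log2 fold change of 0.09. Over all genes tested, 36.6% passed, 18.2% as higher and 18.4% as lower. The stretch and its genes were chosen after their values were known. Cfap69, a gene of sperm flagella on the same strand whose start lies 569 bases past the 3′ end of Steap2, fell (log2 fold change -1.16, adjusted p = 2.5e-07). Cldn12, a claudin, was lower as well (-0.30, adjusted p = 0.0031), and Gtpbp10 (0.48, adjusted p = 0.00061) and Cdk14 (0.22, adjusted p = 0.025) were higher. Sri, the gene of the calcium-binding protein sorcin, which starts 85.8 kb from Steap4, had a log2 fold change of -0.12 (adjusted p = 0.15). Gm15731, which starts 92.4 kb from Steap4, had -0.47 (adjusted p = 0.096).

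**Figure D3:**
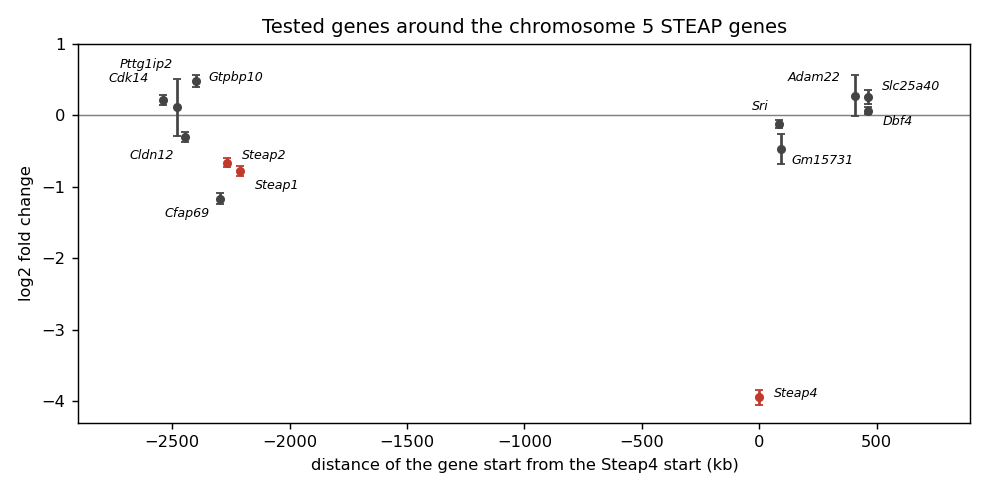
Log2 fold change (Nfkbiz KO against Ctrl, error bars are SE) of the 13 tested genes around the chromosome 5 STEAP genes (red), against the distance of each gene's start from that of Steap4 in kb. Steap4 stands alone at -3.94, while Sri and Gm15731, with starts 85.8 and 92.4 kb away, are at -0.12 and -0.47.

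Of the iron uptake genes, Tfrc was higher and Slc11a2 lower. Tfrc, the transferrin receptor (chromosome 16, 32427556 to 32451612, plus strand), had 109, 118 and 101 TPM in Ctrl and 136, 130 and 142 TPM in Nfkbiz KO. The rise was small but the samples did not overlap (log2 fold change 0.22, SE 0.0549, adjusted p = 0.0077). Without Nfkbiz KO replicate 3 it was 0.19 with an adjusted p of 0.06, the highest of 16 alternatives, which ranged from 0.00051 to 0.06. Slc11a2 (DMT1), which carries ferrous iron out of the endosome, lies on chromosome 15 from 100285776 to 100322953 on the minus strand. It had 46.2, 44.0 and 41.2 TPM in Ctrl and 40.1, 39.2 and 39.5 TPM in Nfkbiz KO, with only a narrow gap between the groups. Its log2 fold change was -0.25 (SE 0.0544, adjusted p = 0.0035), and on log2(TPM + 1) in limma it was -0.14 with an adjusted p of 0.075, the highest of a range from 0.00052 to 0.075. The ratio of Tfrc to Slc11a2, 1 gene higher and 1 lower, was 2.36, 2.69 and 2.44 in Ctrl and 3.39, 3.32 and 3.59 in Nfkbiz KO.

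Both ferritin chains were lower in Nfkbiz KO, and they remained the most abundant transcripts of the set. Fth1, the heavy chain with ferroxidase activity (chromosome 19, 9957911 to 9962462, plus strand), had 1740, 1556 and 1765 TPM in Ctrl and 1485, 1474 and 1410 TPM in Nfkbiz KO (log2 fold change -0.31, SE 0.0773, adjusted p = 0.0073). On log2(TPM + 0.1) in limma it was -0.21 with an adjusted p of 0.054, the highest of a range from 2.9e-05 to 0.054. Ftl1, the light chain that promotes the mineral core (chromosome 7, 45107367 to 45109308, minus strand), had 5454, 5158 and 5677 TPM in Ctrl and 4450, 4550 and 4269 TPM in Nfkbiz KO. Every Nfkbiz KO sample was below every Ctrl sample for both chains, and the log2 fold change of Ftl1 was -0.39 (SE 0.0726, adjusted p = 0.0011). Of the reads on Ftl1, 76.9% mapped to 1 place, and the listed copy Ftl1-ps1 had 54 to 148 reads, so the level of Ftl1 is uncertain to the extent that copies share its reads. The 2 chains together held 0.712% ± 0.037 of all TPM in Ctrl and 0.588% ± 0.0179 in Nfkbiz KO (mean ± SD of 3 samples). The ratio of light to heavy chain was 3.13, 3.31 and 3.22 in Ctrl and 3.0, 3.09 and 3.03 in Nfkbiz KO, close but without overlap. The ratio of Fth1 to Tfrc, whose IREs lie at opposite ends of the transcript, was 15.9, 13.2 and 17.5 in Ctrl and 10.9, 11.3 and 9.95 in Nfkbiz KO. The light-to-heavy ratio had an exact permutation p of 0.1, and that of Fth1 to Tfrc, whose parts moved in opposite directions, is a description. Transcript levels do not show how much ferritin or receptor protein was made.

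Slc40a1 encodes ferroportin, the only known cellular iron exporter, and was the least abundant of the 10. It lies on chromosome 1 from 45947211 to 45965683, on the minus strand. It had 66, 58 and 75 reads in Ctrl (0.702, 0.576 and 0.631 TPM) and 29, 36 and 24 reads in Nfkbiz KO (0.346, 0.330 and 0.185 TPM). The groups did not overlap, and the log2 fold change was -1.17 (SE 0.261, adjusted p = 0.0039), with the widest error of the 10. Because the level is below 1 TPM, the same change was -0.35 on log2(TPM + 1). Hmox1, heme oxygenase 1 (chromosome 8, 75820241 to 75827217, plus strand), had 118, 135 and 133 TPM in Ctrl and 92.5, 94.1 and 94.2 TPM in Nfkbiz KO. Its Nfkbiz KO samples were tightly grouped below all Ctrl samples (log2 fold change -0.56, SE 0.0664, adjusted p = 3.4e-05).

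**Figure D4:**
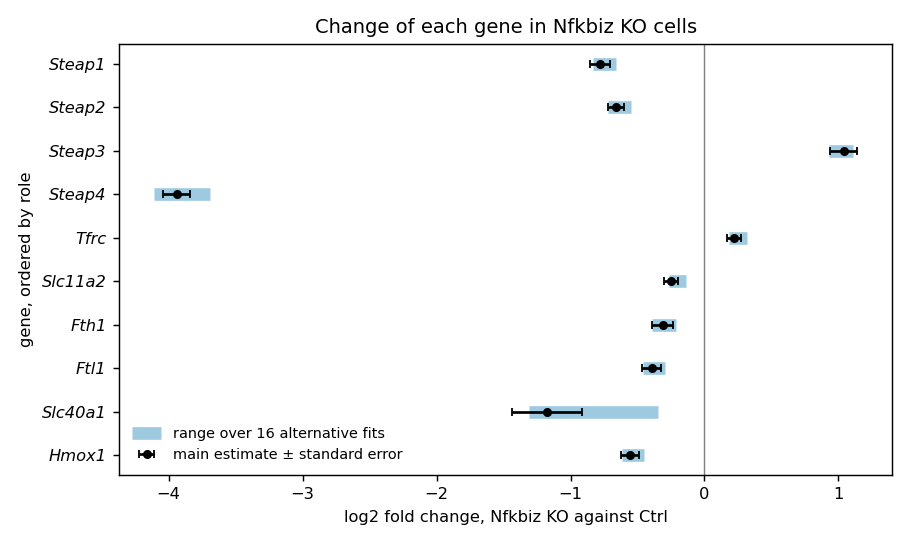
Log2 fold change (Nfkbiz KO against Ctrl) of the 10 genes, with SE, and the range of the estimate over 16 alternative fits in blue. No range crosses 0, and that of Slc40a1, from -1.31 to -0.35, is the widest relative to its estimate.

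On the TPM scale, which is per length, the order of the levels in Ctrl was Ftl1, Fth1, Steap1, Hmox1, Tfrc, Steap4, Steap2, Slc11a2, Steap3 and Slc40a1. Neighbors in this order were apart in all 3 samples, other than Hmox1 (118 to 135 TPM) and Tfrc (101 to 118 TPM), whose ranges overlapped. In Nfkbiz KO, Tfrc stood at rank 3, above Steap1 and Hmox1, and Steap4 had dropped from rank 6 to rank 9. There, the ranges of Steap3 (6.36 to 7.18 TPM) and Steap4 (5.25 to 7.08 TPM) overlapped, and no other neighbors did.

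For the 3 genes with a fold change above 2, the genes whose log2 CPM followed them most closely over the 6 samples were listed among 14418 others. Nearest to Steap4 were Arid3a (Pearson r = 0.9993), Enah (0.9990) and Rnf128 (0.9987). Nearest to Steap3 were Tor3a (0.9991), Cd82 (0.9989) and Ccl4 (0.9981). Nearest to Slc40a1 were Igf2bp1 (0.9955), Noxred1 (0.9952) and Ppox (0.9938), the last a gene of heme synthesis. All points share the same 6 libraries in 2 groups, so many genes that differ between the groups in the same direction score high. In all, 820 genes had r above 0.95 with Steap4, 959 with Steap3 and 280 with Slc40a1.

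Around the 10 genes, 93 further genes of iron, heme and redox biology were listed in 10 groups, and 81 passed the filter on low counts. Of these, 15 were higher in Nfkbiz KO, 21 lower and 45 did not pass. The share that passed, 44.4%, compares with 36.6% of all genes, and the median log2 fold change was -0.02. On log2(TPM + 1) in limma the split was 21 higher and 12 lower, a scale on which 69.4% of all genes called were higher instead of 49.8%, so the balance of directions in this wider list depends on the scale. A fold change above 2 was reached by 5 of the 81, near the 5.92% of all genes tested. All 5 were lower, 2 from the uptake list, 2 from the export list and 1 from the list of other IRE-bearing transcripts. Of all genes tested, 485 were lower and 369 higher by such a fold change, and 5 genes are too few to set against that split.

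Of the 9 uptake genes tested, 2 were lower and 1 higher. Lcn2, lipocalin 2, which binds iron-laden siderophores and is an NF-κB and IκBζ target in inflammation, had 197, 237 and 238 TPM in Ctrl and 15.7, 14.6 and 15.9 TPM in Nfkbiz KO (log2 fold change -3.96, adjusted p = 3.6e-11). Steap4 and Lcn2 thus had nearly equal log2 fold changes, -3.94 and -3.96. Trf, transferrin itself, had 43.6, 42.1 and 43.5 TPM in Ctrl and 16.1, 18.9 and 17.1 TPM in Nfkbiz KO (-1.41, adjusted p = 2.8e-08). The uptake gene that was higher was Cubn, an endocytic receptor (0.88, adjusted p = 2.4e-04), which is named after its value was seen. Of the 6 export genes tested, Cp, the ferroxidase ceruloplasmin that works beside ferroportin, fell from 207 ± 23.4 to 69.5 ± 0.998 TPM (-1.66, adjusted p = 4.2e-09). Tmprss6, a protease that acts on the hepcidin pathway, was lower at 3 to 18 reads (-1.46, adjusted p = 0.034). Neo1 (0.46, adjusted p = 2.5e-04) and, named after its value was seen, Hfe (0.51, adjusted p = 0.0013) were higher, both of them linked to hepcidin control. Epas1 (HIF-2α), whose mRNA is known to carry an IRE, although the search used here found none in it, fell from 10.7 ± 0.988 to 4.71 ± 0.399 TPM (-1.28, adjusted p = 5.6e-07).

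For the counts by list, here and above, 36.6% of all genes tested passed, 18.2% as higher and 18.4% as lower. The lists are short, so their counts say nothing of the lists against that background. Aco1 and Ireb2, the iron regulatory proteins that bind IREs, had log2 fold changes of 0.04 (adjusted p = 0.65) and -0.10 (adjusted p = 0.26). Fbxl5, the iron-sensing subunit that marks Ireb2 for degradation, was the 1 of 5 in its list to pass (-0.36, adjusted p = 3.6e-04), with Cul1 at 0.11 (adjusted p = 0.14). Of 5 storage and chaperone genes beside ferritin, Bola2 passed (-0.37, adjusted p = 0.01) and Pcbp2 had 0.09 (adjusted p = 0.18). In heme synthesis, 4 of 8 genes were lower and 0 higher, and the median log2 fold change of the list was -0.23. The lower genes included Ppox (-0.39, adjusted p = 0.0025) and, named after their values were seen, Alad (-0.30, adjusted p = 0.0097) and Urod (-0.29, adjusted p = 0.028). In heme breakdown and transport, 2 of 11 were higher and 2 lower, among them the exporters Flvcr1 (0.49, adjusted p = 8.2e-05) and Abcg2 (-0.68, adjusted p = 2.5e-05). Blvrb (0.55), a biliverdin reductase, and Hmox2 (-0.22), the constitutive heme oxygenase, also passed and are named after their values were seen. Among 16 mitochondrial iron and iron-sulfur genes, 4 were higher, including Abcb10 (0.54, adjusted p = 8e-05) and the iron importer Slc25a37 (0.29, adjusted p = 0.0016), and 3 were lower.

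**Figure D5:**
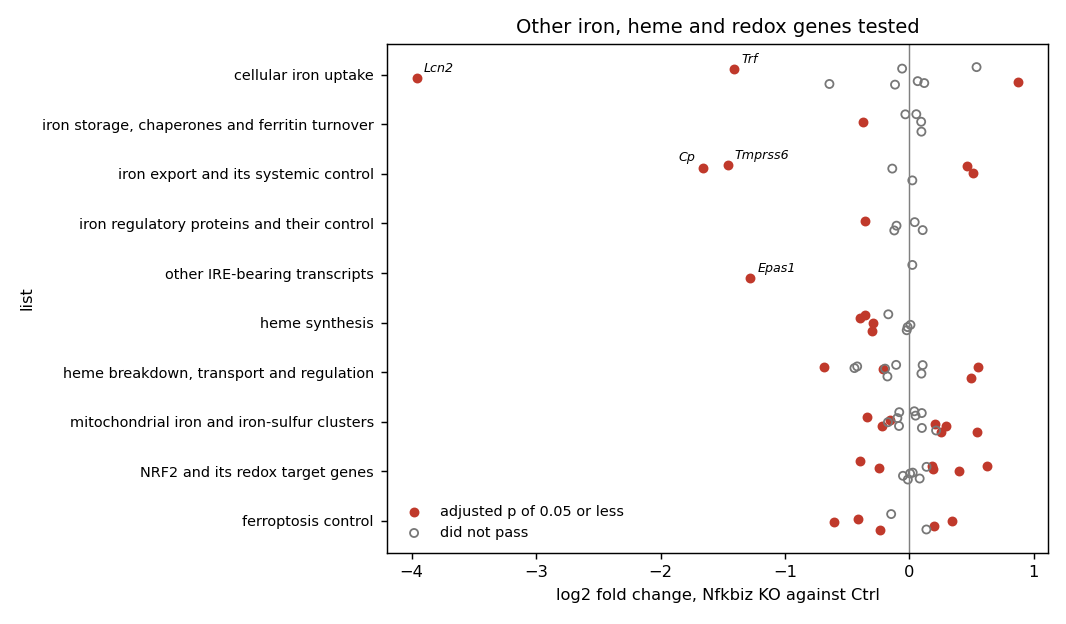
Log2 fold change (Nfkbiz KO against Ctrl) of the 81 other iron, heme and redox genes tested, 1 row of points per list. Filled points passed the test and open points did not, and vertical scatter within a row has no meaning. The 5 labeled genes with a fold change above 2 (Lcn2, Cp, Tmprss6, Trf and Epas1) all lie to the left. Of all genes tested, 5.92% had such a fold change, 485 lower and 369 higher.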

How the data were processed

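Total RNA of 3 Ctrl and 3 Nfkbiz KO samples was sequenced in paired ends. Per the paper, the authors mapped reads to GRCm39 with CLC Genomics Workbench 24.0, while the submitters' processing notes name GRCm38. The annotation version is not given in the sources used here. The deposited tables give raw counts of total and unique reads per gene, and TPM and RPKM from exons. Counting is not stated to use strand. RPKM served only for the unit of the difference cut-off.

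Total gene counts were tested with edgeR 4.0.16 in R 4.3.3 (TMM, filterByExpr with a minimum count of 10, quasi-likelihood test, Benjamini-Hochberg adjustment over 14419 genes). SE is the size of the log2 fold change divided by the square root of F. The cut-offs of fold change above 2, adjusted p of 0.05 and difference above 4 follow the paper, which gives no unit for the difference. TPM was assumed. Alternatives used edgeR's likelihood-ratio test, DESeq2 1.42.0, RLE or no factors, other filters, limma 3.58.1 on log2(TPM + 1) and log2(TPM + 0.1), unique reads, a replicate block and each sample left out. The test was checked on simulated counts. No samples were duplicates: chi-square per degree of freedom between samples of a group was 19.9 to 50.1 in Ctrl and 2.96 to 4.85 in Nfkbiz KO. A count of 0 allows up to 3 reads, or 0.0668 to 0.0931 CPM, for counting error only. Coordinates are from GENCODE M39 by symbol, which matched 86.2% of listed genes and all 10 described. Promoter windows are from RefSeq, and 7 of the 10 were matched to windows.

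The 10 genes and the lists were chosen with earlier results of these data known. Named are the 10, Nfkbiz, other iron genes with a fold change above 2 and adjusted p of 0.05 or less, the 2 with the lowest adjusted p in each list, and for each of the 10 with such a fold change the 3 genes with the highest correlation. Of these, 2 are not reported here. Other genes were chosen after their values were seen. The share of reads outside exons per gene was not analysed here.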

Additional observations from a re-analysis of the deposited data

How the results depend on the processing

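Over 16 alternative fits, 8 to 10 of the 10 genes passed the test (9 to 10 with each sample left out in turn), and none changed direction. The passes lost were those of Slc11a2 and Fth1 on a TPM scale and of Tfrc without Nfkbiz KO replicate 3, given above. In limma, the median log2 fold change of all genes was 0.063 on log2(TPM + 1) and 0.08 on log2(TPM + 0.1), against -0.015 in the main fit. The cause of the lost passes was not tested. The number past fold change, adjusted p and difference together was 1, and also 1 in 17 of 20 alternatives. It was 2 with the difference in CPM (Steap3 joins Steap4, and the cause was not tested) and 3 with no difference cut-off (Slc40a1 joins). It was 5 at a fold change of at least 1.5 and adjusted p of 0.1 or less, also with no difference cut-off (Steap1 and Steap2 join). The latter 2 settings are less strict by construction. Of the other iron genes 27 to 38 passed, and of all genes 3798 to 5638. Replicate numbers did not pair the samples (correlation of deviations between same-numbered samples 0.037, -0.023 and 0.026). With the replicate block, all 10 genes, 33 other iron genes and 5087 of all genes passed, and 1 of the 10 met all cut-offs. For Nfkbiz, the log2 fold change was -1.02 to -0.94 throughout. Depth limited Slc40a1 most, at 24 to 75 reads per sample.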

Other observations

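Genes of redox defense and ferroptosis, a form of cell death driven by iron-dependent lipid oxidation, moved in both directions. Of 12 genes listed as NRF2 and its redox targets, 4 were higher in Nfkbiz KO, 2 lower and 6 did not pass, where 36.6% of all genes passed, 18.2% as higher and 18.4% as lower. Slc7a11, the cystine importer that feeds glutathione synthesis, had 16.04, 19.2 and 14.2 TPM in Ctrl and 25.6, 28.0 and 27.6 TPM in Nfkbiz KO (log2 fold change 0.62, edgeR adjusted p = 3e-05). Its partner chain Slc3a2 was higher too (0.34, adjusted p = 1.9e-04), as was Gclc, the catalytic subunit of glutathione synthesis (0.40, adjusted p = 0.0015), both named after their values were seen. G6pdx, which supplies NADPH, was lower (-0.39, adjusted p = 6.1e-05). Nqo1 and Gclm, further NRF2 targets, had -0.01 (adjusted p = 0.92) and 0.01 (adjusted p = 0.95), and Hmox1, which is both an NRF2 target and one of the 10 genes, was lower (-0.56).

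Of 7 ferroptosis genes tested, 2 were higher, 3 lower and 2 did not pass, and with lists this short the counts say nothing of the lists against that background. Gch1, which makes the antioxidant tetrahydrobiopterin, had 7.81, 7.84 and 7.91 TPM in Ctrl and 5.48, 5.60 and 5.70 TPM in Nfkbiz KO (-0.61, adjusted p = 8e-05). Lpcat3, which builds polyunsaturated phospholipids, was lower (-0.42, adjusted p = 1.2e-04), and so was Gpx4, which removes lipid peroxides (-0.24, adjusted p = 0.021), named after its value was seen like Acsl4 (0.20, adjusted p = 0.015). No measure of iron, lipid oxidation or cell death was analysed here.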
